A study of Homo sapiens with 6 samples.

Results

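The genes described here are the RAB GTPases, taken as every gene whose symbol is RAB followed by digits and at most 1 letter. Antisense genes, effectors and interactors were left out. This gave 61 of the 20026 genes in the table. RNA-seq was performed on 6 libraries of HepG2, a human hepatocellular carcinoma (HCC) cell line, with 2 libraries in each of 3 groups. The groups were Scr, whose genotype is labelled WT, and cells labelled miR-23a KO or miR-27a KO. In the KO models Cas9 and a pair of guide RNAs flanking the mature miRNA were delivered on a GFP plasmid, single GFP-positive cells were sorted, and colonies were grown. The control cells received the same kind of plasmid without a miRNA guide. In the colonies as the study describes them, each knockout also lowered other mature miRNAs of the same cluster, and the second miR-27a KO colony was heterozygous for its deletion. A KO group is therefore named by the miRNA that was targeted, and its comparison with Scr does not isolate that miRNA. The labels do not say which colony each library came from. A colony grown from a single cell carries whatever else that cell carried, and p-values here measure only the spread between these libraries, which may be technical. All 3 groups share the HepG2 background. The miRNAs themselves were not analysed here in the libraries, so the KO labels were not checked against their targets.

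RAB proteins are small GTPases that sit on the cytosolic face of organelle membranes and direct where transport vesicles form, move and fuse. Each switches between a GTP-bound form, which recruits effector proteins, and a GDP-bound form. Guanine nucleotide exchange factors load the GTP, GTPase activating proteins stimulate its hydrolysis, and escort and GDP dissociation inhibitor proteins handle the lipid anchor that holds a RAB on its membrane. Hepatocytes secrete plasma proteins and lipoproteins at one surface and move bile components and receptors to the other, so transport through the Golgi, endosomes and recycling endosomes is a large part of what these cells do.

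The 2 targeted miRNAs lie in the same primary transcript on chromosome 19, and their mature sequences are shown because the seed sets which transcripts can pair with them. The RefSeq sequences, 5' to 3' on GRCh38.p14, have the seed (bases 2 to 8) in capitals. Both are on the minus strand, hsa-miR-23a-3p at chr19:13836595-13836615 and hsa-miR-27a-3p at chr19:13836447-13836467.
hsa-miR-23a-3p: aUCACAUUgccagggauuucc
hsa-miR-27a-3p: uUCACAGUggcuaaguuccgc
The seeds differ, so sites were searched for each as the 7-base complement, AATGTGA for miR-23a-3p and ACTGTGA for miR-27a-3p. All 61 RAB genes had a 3'-UTR in the GENCODE 29 annotation. The miR-23a-3p site was present in 6 of the 61 (9.84%), against 3064 of 15909 genes (19.3%). The miR-27a-3p site was present in 13 of the 61 (21.3%), against 2646 of 15909 genes (16.6%). A match describes the letters only and is not evidence of binding.

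RAB8B, which works in transport to the plasma membrane, was the RAB gene with sites for both miRNAs. RAB3B, a RAB of regulated secretory vesicles, had 3 miR-27a-3p sites in a 3'-UTR of 11971 bases. Its paralog RAB3C, too low to test, also had 3, in 8043 bases. The sites of RAB8B and RAB3B are shown with 10 bases on each side and the match in capitals.
RAB8B miR-23a-3p site: ctttttttaaAATGTGAatttagttat
RAB8B miR-23a-3p site: ccaatggcttAATGTGAaaagctcctg
RAB8B miR-27a-3p site: gcagcatctaACTGTGAttctgtcaat
RAB3B miR-27a-3p site: cattaaatcaACTGTGActctgggcca
RAB3B miR-27a-3p site: aggtggagccACTGTGAgagtctaggg
RAB3B miR-27a-3p site: ttgacacaacACTGTGAtgtgggtttt
RAB8B had 54 and 46 counts in Scr, 45 and 185 with miR-23a targeted and 78 and 82 with miR-27a targeted. In CPM, the counts scaled to the size of each library with edgeR's TMM factors, both miR-27a KO libraries lay above Scr, and of the miR-23a KO libraries 1 lay between the Scr values and 1 above them. Neither difference passed the test, with a log2 fold change of 1.06 (SE 0.74; edgeR, Benjamini-Hochberg adjusted p = 1) in miR-23a KO and 0.49 (SE 0.27; adjusted p = 0.27) in miR-27a KO. Without replicate 2 of miR-23a KO the former was -0.00. Of the 13 genes with a miR-27a-3p site, 12 were tested in miR-27a KO against Scr, where edgeR called 0 higher and 1, RAB3B, lower, against 3.52% of all genes called higher and 6.74% called lower.

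The libraries held between 14405250 and 16515261 counts, with 16557 to 17481 genes detected in each. All 16 hepatocyte markers checked were above 10 counts in every library. Together they had 606816 and 718628 counts in Scr, 652586 and 765063 with miR-23a targeted and 627997 and 630350 with miR-27a targeted, with SERPINA1 or ALB the most abundant. Of the 16, 3 were called lower in miR-27a KO (AFP, ALB and FGB) and 1 higher (TF), against 6.74% and 3.52% of all genes. AFP had 37239 and 57930 counts in Scr, 50060 and 121061 with miR-23a targeted and 3046 and 3184 with miR-27a targeted. ALB had 149877 and 223691, 103839 and 271337, and 34460 and 35719 in the same order. Their log2 fold changes in miR-27a KO were -4.11 and -2.59 (edgeR, Benjamini-Hochberg adjusted p = 0.00262 and 0.00538), and FGB, a fibrinogen gene, was at -2.05 (adjusted p = 0.0212). TF, the transferrin gene, was at 1.25 (edgeR, adjusted p = 0.0212), so the list moved in both directions. The part of these markers in the RAB results was not tested.

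Of the blood markers, all 4 were detected, PTPRC with 1 or 2 counts and CD3E with 1 to 7. Their sum was 7752 and 8305 in Scr, 3466 and 4728 with miR-23a targeted and 26455 and 27636 with miR-27a targeted. LYZ was the most abundant of them except in replicate 1 of miR-23a KO, where CD68 was. It had 5426 and 6049 counts in Scr, 1676 and 3413 with miR-23a targeted and 24691 and 25916 with miR-27a targeted, and was called higher in miR-27a KO at a log2 fold change of 1.96 (edgeR, Benjamini-Hochberg adjusted p = 0.00204). CD68 went the other way, with 2324 and 2247 counts in Scr, 1787 and 1312 with miR-23a targeted and 1760 and 1714 with miR-27a targeted, at -0.58 in miR-27a KO (edgeR, adjusted p = 0.0166), which was not called. The bile duct list had 4 of 4 genes detected, with KRT7 at 1 to 6 counts, and summed to 6528 and 6665, 4369 and 4605, and 9218 and 9388. EPCAM was called higher in miR-27a KO, with 1232 and 1585 counts in Scr and 3949 and 4071 in miR-27a KO, at a log2 fold change of 1.33 (edgeR, adjusted p = 0.00761). KRT19 was at -0.31 and SOX9 at 0.04, neither called, and KRT7 was too low to test. The 3 endothelial genes with a value in the table summed to 44 to 127 counts, with PECAM1 the most abundant. Of the fibroblast and stellate list, 2 of 6 genes had a value. PDGFRB had 250 and 433, 392 and 364, and 93 and 85 counts, and COL1A1 had 0 to 2. PDGFRB was called lower in miR-27a KO at -2.12 (edgeR, adjusted p = 0.0166). The part of these 4 lists in the RAB results was not tested. In bulk RNA, fewer cells of a type and less RNA per cell cannot be told apart.

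The replicates of miR-23a KO stood apart from each other, which bears on each comparison that uses them. Over the 48 RAB genes tested in all comparisons, the SD of the log2 ratio between replicates, taken after adding 0.5 CPM to each, was 0.37 in Scr, 1.07 with miR-23a targeted and 0.24 with miR-27a targeted. The same SD over 12728 genes was 0.49, 1.16 and 0.26. In miR-23a KO, 19 of the 48 RAB genes (39.6%) differed by more than 2-fold between replicates, against 1 (2.08%) in Scr and 0 in miR-27a KO. Over the 12728 genes the shares were 44%, 4.69% and 0.77%, so the RAB genes were near the share of all genes. These differences went with base composition. The 22 RAB genes that were higher in replicate 2 had a median transcript GC content of 39.7% and a median length of 3951 bases. The 26 that were higher in replicate 1 had medians of 56.6% and 2023 bases. Across the 48 genes, which are not independent replicates, the ratio correlated with GC content at r = -0.84 in miR-23a KO, -0.36 in Scr and 0.07 in miR-27a KO. Over all 12728 genes the values were -0.68, -0.42 and -0.05.

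Paralogs that act at the same step moved apart between these replicates. RAB1A and RAB1B both act between the endoplasmic reticulum (ER) and the Golgi, and their transcripts differ in GC content, at 38.3% and 61.1%. Per kilobase, the RAB1A level divided by the RAB1B level was 0.448 and 0.518 in Scr and 0.469 and 0.486 in miR-27a KO. In miR-23a KO it was 0.141 and 0.798, so these libraries lay on either side of the others. RAB40C, whose product is part of a ubiquitin ligase, had 1495 and 569 counts in the miR-23a KO replicates, against 669 and 683 in Scr. RAB40C and RAB1A were chosen after their values were seen.

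**Figure D1:**
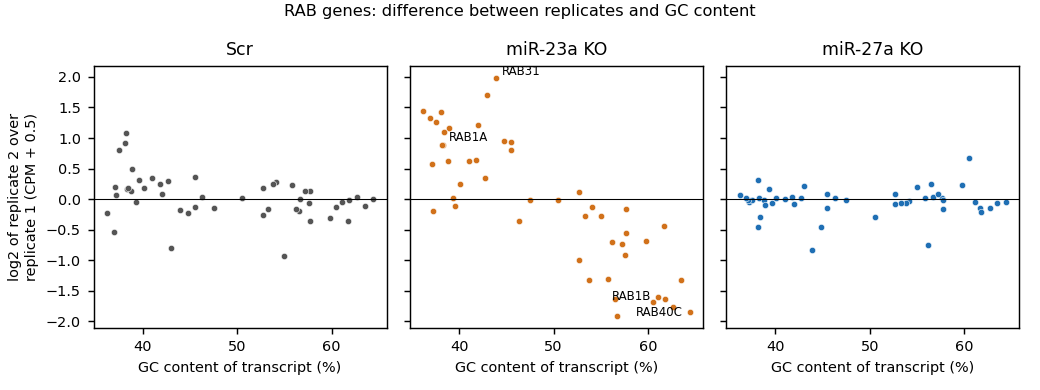
Each point is 1 RAB gene, with the GC content of its transcript (%) on the x axis and the log2 ratio of CPM + 0.5 in replicate 2 over replicate 1 on the y axis, with 1 panel per group. In miR-23a KO the points run from above 0 at low GC content to below 0 at high GC content (r = -0.84), and in miR-27a KO most lie near 0.

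The RAB genes together took 41778 and 44117 counts in Scr, 48170 and 47063 with miR-23a targeted and 40559 and 40436 with miR-27a targeted. As a share of each library this was 0.281% and 0.306%, 0.292% and 0.295%, and 0.256% and 0.254%. Both miR-27a KO libraries were below all others. In CPM the family summed to 2910 ± 74.9 in Scr, 3132 ± 776 with miR-23a targeted and 2443 ± 17.6 with miR-27a targeted (mean ± SD, n = 2). The SD in miR-23a KO was larger than its distance from Scr. The 5 most counted RAB genes held 39.2% to 51.2% of the family's counts.

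Compared per kilobase of transcript, the highest RAB levels in Scr were those of RAB5C, RAB7A, RAB1B, RAB11B and RAB17. RAB5C, which directs fusion of early endosomes, was at 180 ± 20.7 CPM per kilobase. RAB7A, the RAB of late endosomes and lysosomes, was at 132 ± 9.67 and RAB1B at 125 ± 2.96, and these ranges overlapped. RAB11B, of recycling endosomes, was at 108 ± 6.2 and RAB17, an epithelial RAB of the same compartment, at 99.2 ± 6.12, which also overlapped. At the low end, 12 RAB genes were in no test because of low counts, with at most 9 counts in any library and a group mean of at most 8.5. They were RAB3C, RAB6C, RAB6D, RAB7B, RAB9B, RAB13, RAB33A, RAB38, RAB39B, RAB40A, RAB41 and RAB44. The rest were tested, 48 in miR-23a KO against Scr, 49 in miR-27a KO against Scr and 49 between the KO groups.

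**Figure D2:**
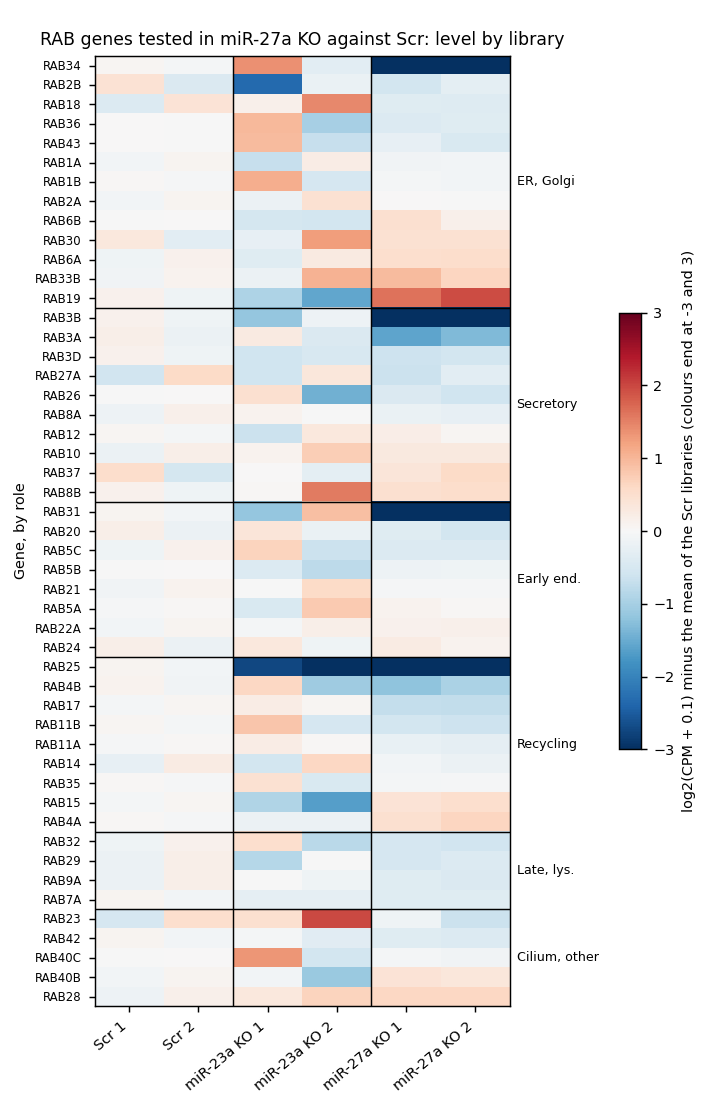
Each row of the heat map is a RAB gene tested in miR-27a KO against Scr, ordered by role, and each column a library. Colour is log2(CPM + 0.1) minus the mean of the Scr libraries, with colours ending at -3 and 3. RAB34, RAB3B, RAB31 and RAB25 are darkest in both miR-27a KO libraries, and the miR-23a KO columns often differ in sign from each other.

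The comparison of miR-27a KO with Scr asks which genes differ in cells with miR-27a targeted. In these cells 8 RAB genes were lower and 1 was higher. RAB34 fell 76-fold, RAB25 38.2-fold, RAB31 13-fold and RAB3B 11.2-fold, RAB3A, RAB4B, RAB17 and RAB11B fell between 1.53-fold and 2.82-fold, and RAB19 rose 3.74-fold. A call required more than a 1.5-fold difference together with a Benjamini-Hochberg adjusted p below 0.05 in the quasi-likelihood test of edgeR, adjusted over the 13820 genes tested. The 8 lower genes were 16.3% of the 49 RAB genes tested, against 6.74% of all genes called lower. The 1 higher gene was 2.04%, against 3.52% of all genes. The median log2 fold change was -0.25 over the RAB genes and 0.01 over all genes, and 33 of the 49 had a fitted value below 0.

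By an unadjusted p under 0.05, 17 RAB genes (34.7%) were lower and 6 (12.2%) higher, against 18.4% and 13.8% of all genes. With no overlap between the libraries and a difference over 1.5-fold, 9 were lower and 3 higher, against 12.6% and 10.8% of all genes. At the adjusted p of 0.001 that the study used, edgeR called 0 RAB genes, and 0.0145% of all genes in each direction. The study, which names no test, reported far more genes past its thresholds in this comparison. The number called depended on the KO libraries. Without replicate 1 of miR-27a KO, or without replicate 2, 4 RAB genes were lower and 0 higher, where 2.19% and 1.76% of all genes were lower and 0.776% and 0.574% higher. Those 4 were among the 8. Without replicate 1 or 2 of Scr the count was 11 lower, with 3 or 4 higher, where 8.73% and 12.6% of all genes were lower and 7.25% and 13.3% higher. In a fit of all 6 libraries, which takes in the spread of miR-23a KO, RAB34 alone was called lower, against 0.431% of all genes, and 0 were higher, against 0.0212%.

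**Figure D3:**
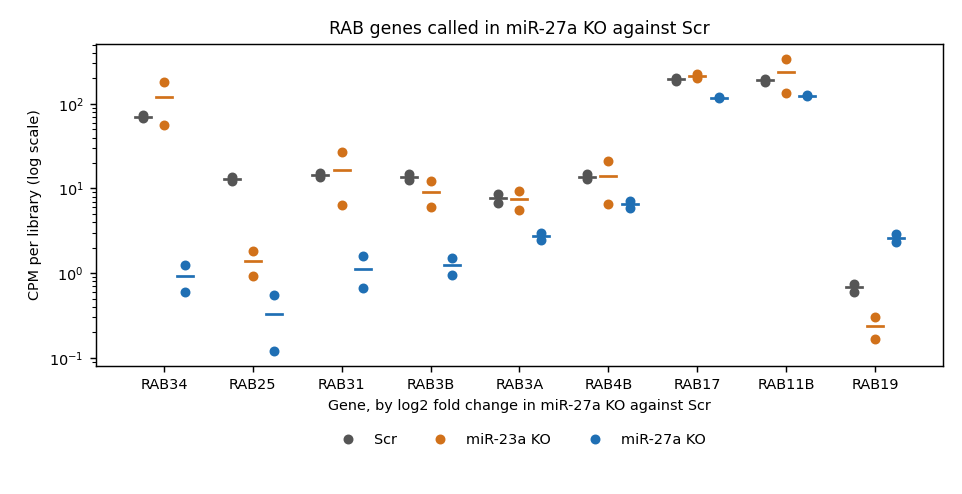
CPM on a log scale of the 9 RAB genes called in miR-27a KO against Scr, ordered by log2 fold change. Points are libraries and short lines are group means of 2 libraries. The miR-27a KO points lie below both Scr points for 8 genes and above them for RAB19, and for RAB34, RAB31, RAB3A, RAB4B and RAB11B the miR-23a KO points lie on either side of Scr.

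Among the RAB genes of the ER and Golgi, 13 were tested, with 1 called lower and 1 higher, against 6.74% and 3.52% of all genes, and a median log2 fold change of -0.09. A single gene of 13 in each direction is near these shares. RAB34 (gene ID 83871, chr17:28714281-28718429 on the minus strand in GENCODE 29 on GRCh38), a Golgi RAB that also acts in lysosome positioning and cilium formation, had 1080 and 1006 counts in Scr, 2402 and 1033 with miR-23a targeted and 10 and 21 with miR-27a targeted. Both miR-27a KO libraries were far below the other 4, with no overlap. The means were 70.7 ± 4.45 CPM in Scr and 0.934 ± 0.465 in miR-27a KO, a log2 fold change of -6.25 (SE 0.27; edgeR, Benjamini-Hochberg adjusted p = 0.00204). In this fit RAB34 did not pass the stricter 0.001 of the study. It was called in each of the 8 other ways of processing and in each of the 4 fits that left out a library, with a log2 fold change of -6.86 without replicate 2 of miR-27a KO and -5.81 without replicate 1.

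The bases just before the first annotated RAB34 start are shown because the transcript was nearly gone in miR-27a KO. The stretch is chr17:28718430-28718518 on the minus strand, 89 bases from RefSeq on GRCh38.p14 that lie outside every annotated RAB34 transcript. It had 3 CpG and no match on either strand to GGGCGG (the GC box), to TATAAA (the TATA box) or to CACGTG (the E-box). A RAB34 start window farther downstream, chr17:28717819-28718118, had 4 matches to GGGCGG and is not printed.
RAB34: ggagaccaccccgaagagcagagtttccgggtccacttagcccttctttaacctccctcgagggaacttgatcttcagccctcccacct
The 7 genes checked around RAB34 were on both sides of 0, and these neighbours were chosen after the RAB34 values were seen. RPL23A, which starts 1.0 kb away on the opposite strand, had 8754 and 8447 counts in Scr and 8859 and 9802 in miR-27a KO, a log2 fold change of -0.07 (SE 0.09). PROCA1, 2.4 kb away, was at 0.01, TLCD1 at 0.15, NEK8 at 0.16 and SUPT6H at 0.12. TRAF4, 25.6 kb away, was at -0.41 (edgeR, adjusted p = 0.0311), under 1.5-fold. FAM222B, 37.5 kb away, fell by 0.78 on the log2 scale (SE 0.11; edgeR, Benjamini-Hochberg adjusted p = 0.0166).

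RAB19 (gene ID 401409, chr7:140404043-140426250), a little studied RAB, was the only RAB gene called higher, at low counts. It had 11 and 9 counts in Scr, 4 and 3 with miR-23a targeted and 38 and 48 with miR-27a targeted. Both miR-27a KO libraries were above all others and the miR-23a KO libraries below. The log2 fold change in miR-27a KO was 1.90 (SE 0.41; edgeR, Benjamini-Hochberg adjusted p = 0.0401). The call was lost without replicate 1 or 2 of miR-27a KO (edgeR, adjusted p = 0.229 and 0.376), with DESeq2 (adjusted p = 0.0661) and with no filter on low counts (edgeR, adjusted p = 0.0606). RAB19 overlaps SLC37A3 on the opposite strand, whose log2 fold change was 0.02, and since the use of strand in counting is not given, its counts are uncertain.

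Other Golgi RAB genes stayed closer to Scr. RAB6A, which acts in transport from the Golgi, had 1070 and 1285 counts in Scr, 804 and 1753 with miR-23a targeted and 1854 and 1916 with miR-27a targeted. The miR-27a KO and Scr libraries did not overlap, and the log2 fold change was 0.49 (SE 0.10; edgeR, Benjamini-Hochberg adjusted p = 0.0382), under 1.5-fold. RAB6A is nearly identical in sequence to RAB6C and RAB6D, so its counts are uncertain. RAB33B, which acts in Golgi transport and autophagy, had 40 and 47, 34 and 112, and 95 and 77 counts. The miR-27a KO libraries were above Scr, but the log2 fold change of 0.80 (SE 0.28) did not pass (edgeR, adjusted p = 0.125). RAB1B had 3729 and 3672 counts in Scr and 3979 and 3911 in miR-27a KO, a log2 fold change of -0.09 (SE 0.08), although 6969 and 3202 in miR-23a KO.

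Of the RAB genes of secretory vesicles and exocytosis, 10 were tested, with 2 called lower, 0 higher (0 also by DESeq2 and limma), against 6.74% and 3.52% of all genes, and a median log2 fold change of -0.39. An unadjusted p under 0.05 was found for 3 of the 10, against 32.2% of all genes in either direction. RAB3B (gene ID 5865, chr1:51907956-51990764) had 218 and 188 counts in Scr, 80 and 224 with miR-23a targeted and 25 and 16 with miR-27a targeted. Both miR-27a KO libraries were below the other 4. The means were 13.8 ± 1.61 CPM in Scr and 1.24 ± 0.39 in miR-27a KO, a log2 fold change of -3.49 (SE 0.31; edgeR, Benjamini-Hochberg adjusted p = 0.00701). This was the gene whose 3 miR-27a-3p sites are shown above. The part of these sites in its level was not tested. The call held in each of the 4 fits that left out a library.

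RAB3A (gene ID 5864, chr19:18196784-18204074), which sits on synaptic and other regulated secretory vesicles, had 125 and 101 counts in Scr, 121 and 102 with miR-23a targeted and 41 and 50 with miR-27a targeted. The miR-27a KO libraries were below the other 4, at 2.74 ± 0.37 CPM against 7.67 ± 1.25 in Scr. The log2 fold change was -1.50 (SE 0.28; edgeR, Benjamini-Hochberg adjusted p = 0.0302), and without replicate 1 or 2 of miR-27a KO the call was lost (adjusted p = 0.238 and 0.18). RAB3A overlaps MPV17L2 on the opposite strand, so its counts are uncertain. MPV17L2 had 712 and 802 counts in Scr, 1717 and 567 with miR-23a targeted and 331 and 337 with miR-27a targeted, a log2 fold change of -1.36 (SE 0.11; edgeR, adjusted p = 0.00621). IFI30, 18.7 kb from RAB3A, was not called, at -0.25 (edgeR, adjusted p = 0.235). PDE4C, 3.9 kb away, and PIK3R2 and MAST3, 26.2 and 45.1 kb away, were called lower, at log2 fold changes of -1.48, -0.59 and -0.78. These neighbours were chosen after the RAB3A values were seen. RAB3D, the paralog of exocrine granules, had 330 and 279 counts in Scr and 220 and 234 in miR-27a KO. These did not overlap, and the log2 fold change of -0.61 (SE 0.17) did not pass (edgeR, adjusted p = 0.0712).

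Of the 8 RAB genes of early endosomes, 1 was called lower and 0 higher (edgeR, where 3 of the 8 had an unadjusted p under 0.05, against 32.2% of all genes), against 6.74% and 3.52% of all genes called, with a median log2 fold change of -0.11. RAB31 (gene ID 11031, chr18:9708165-9862551), which acts between the trans-Golgi network and endosomes, had 224 and 201 counts in Scr, 84 and 488 with miR-23a targeted and 26 and 11 with miR-27a targeted. The miR-27a KO libraries were lowest, and those of miR-23a KO lay on either side of Scr. RAB31 fell in miR-27a KO, with a log2 fold change of -3.70 (SE 0.41; edgeR, Benjamini-Hochberg adjusted p = 0.0102). It was -4.44 without replicate 1 of miR-27a KO and -3.19 without replicate 2, and remained called in both. The related RAB5C, RAB5A, RAB5B, RAB21 and RAB22A were not called. RAB5C had 4635 and 5553 counts in Scr, 7103 and 3982 with miR-23a targeted and 4239 and 4319 with miR-27a targeted. Its log2 fold change was -0.44 (SE 0.10; edgeR, adjusted p = 0.0477), under 1.5-fold.

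Of the 9 RAB genes of recycling endosomes, edgeR called 4 lower, against 6.74% of all genes, and 0 higher (7 with an unadjusted p under 0.05 in either direction, against 32.2% of all genes), with a median log2 fold change of -0.26. The difference from the other role groups was not tested. RAB25 (gene ID 57111, chr1:156061160-156070514), an epithelial RAB closely related to RAB11A and RAB11B, had 198 and 180 counts in Scr, 24 and 17 with miR-23a targeted and 9 and 2 with miR-27a targeted. All KO libraries were below Scr, with no overlap. The means were 12.8 ± 1.03 CPM in Scr, 1.38 ± 0.637 with miR-23a targeted and 0.333 ± 0.3 with miR-27a targeted. RAB25 fell in miR-27a KO at a log2 fold change of -5.26 (SE 0.51; edgeR, Benjamini-Hochberg adjusted p = 0.00801), and it was -6.65 without replicate 1 of miR-27a KO and -4.54 without replicate 2, called in both.

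Of the genes around RAB25, LAMTOR2, 2.6 kb away, was at a log2 fold change of 0.02, MEX3A, 1.5 kb away, at 0.30 and UBQLN4, 7.4 kb away, at -0.09. SSR2, 40.2 kb away, was at -0.37 (edgeR, adjusted p = 0.0379), under 1.5-fold. These neighbours were chosen after the RAB25 values were seen. The 250 bases before the RAB25 start (chr1:156060910-156061159, plus strand) had 8 CpG, and the 114 bases before the first annotated RAB31 start (chr18:9708051-9708164, plus strand) had 18 CpG. Both are from RefSeq on GRCh38.p14. They are shown beside RAB34 because these genes had the largest falls, with matches to GGGCGG in capitals, of which RAB31 had 2 and RAB25 had none.
RAB25: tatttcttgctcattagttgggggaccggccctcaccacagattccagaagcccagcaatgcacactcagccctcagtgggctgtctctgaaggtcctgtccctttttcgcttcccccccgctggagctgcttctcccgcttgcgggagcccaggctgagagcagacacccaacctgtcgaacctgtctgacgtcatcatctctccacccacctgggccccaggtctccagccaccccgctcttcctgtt
RAB31: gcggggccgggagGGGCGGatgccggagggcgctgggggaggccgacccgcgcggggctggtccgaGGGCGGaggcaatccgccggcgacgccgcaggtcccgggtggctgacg
The stretches printed for the 3 genes differ in length, so their counts cannot be set against each other. Over the 300-base windows from 250 bases before to 50 after each start, 68 windows of 48 RAB genes had a median of 23 CpG and 64.0% GC, against 14 and 58.7% in 35116 windows of 27305 genes. GGGCGG was in 72.1% of the RAB windows against 45%, TATAAA in 8.82% against 11.5% and CACGTG in 8.82% against 7.26%, on either strand. The RAB31 window had 52 CpG and the RAB25 window 9, and the 3 RAB34 windows had 22, 13 and 12. Matches to GGGCGG numbered 4 in the RAB31 window, 0 in the RAB25 window, and 4, 0 and 0 in the RAB34 windows. A match is a description and not a site.

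RAB4B (gene ID 53916, chr19:40778216-40796938), which acts in recycling from early endosomes, had 216 and 192 counts in Scr, 279 and 119 with miR-23a targeted and 97 and 118 with miR-27a targeted. The miR-27a KO libraries were below Scr, and the log2 fold change was -1.11 (SE 0.21; edgeR, Benjamini-Hochberg adjusted p = 0.0312). Its paralog RAB4A went the other way, with 865 and 852 counts in Scr, 673 and 943 with miR-23a targeted and 1351 and 1520 with miR-27a targeted. RAB4A was above Scr in both miR-27a KO libraries, at a log2 fold change of 0.56 (SE 0.10; edgeR, adjusted p = 0.0276), under 1.5-fold. Per kilobase, the RAB4A level divided by the RAB4B level was 1.58 and 1.75 in Scr, 0.954 and 3.13 with miR-23a targeted and 5.51 and 5.09 with miR-27a targeted. The RAB4B call was lost without replicate 1 or 2 of miR-27a KO (edgeR, adjusted p = 0.283 and 0.188) and with no filter on low counts (adjusted p = 0.051). RAB4B counts are uncertain because the readthrough gene RAB4B-EGLN2, at a log2 fold change of 0.03, overlaps it on the same strand.

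RAB17 (gene ID 64284, chr2:237574322-237601614) and RAB11B (gene ID 9230, chr19:8389981-8404434) were the called genes with the highest counts and the smallest changes. RAB17 had 2727 and 3030 counts in Scr, 2981 and 3725 with miR-23a targeted and 1974 and 1954 with miR-27a targeted, with the miR-27a KO libraries below all others in CPM. The log2 fold change was -0.74 (SE 0.08; edgeR, Benjamini-Hochberg adjusted p = 0.0103). RAB11B had 2880 and 2704, 4424 and 2447, and 2118 and 2032 counts, and was below Scr in both miR-27a KO libraries at -0.61 (SE 0.09; edgeR, adjusted p = 0.0173). After a correction for GC content and length these values were -0.50 and -0.33, under 1.5-fold. Without replicate 1 or 2 of miR-27a KO neither passed (edgeR, adjusted p = 0.0927 and 0.122 for RAB17, 0.146 and 0.224 for RAB11B), and without replicate 1 of Scr RAB11B was at -0.54, under 1.5-fold. RAB11B overlaps its antisense gene RAB11B-AS1, at a log2 fold change of -0.57, so its counts are uncertain.

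None of the 4 tested RAB genes of late endosomes and lysosomes was called by edgeR, against 6.74% of all genes called lower and 3.52% higher. An unadjusted p under 0.05 was found for 3 of them, against 32.2% of all genes, all 4 were fitted below 0, against 49.1%, and the median log2 fold change was -0.46. RAB7A had 4555 and 4181 counts in Scr, 3210 and 4440 with miR-23a targeted and 3798 and 3808 with miR-27a targeted, below Scr at -0.39 (SE 0.09; edgeR, Benjamini-Hochberg adjusted p = 0.0495). RAB32, of lysosome-related organelles, had 769 and 933 counts in Scr and 670 and 646 in miR-27a KO, at -0.56 (SE 0.12; edgeR, adjusted p = 0.0402). Both were under 1.5-fold. Of the 5 genes of the cilium and other roles, edgeR called 0, against the same shares of all genes called, and 2 had an unadjusted p under 0.05, against 32.2%. RAB28, a cilium RAB, had 72 and 92, 90 and 162, and 141 and 143 counts. Its miR-27a KO libraries were above Scr, and the log2 fold change of 0.61 (SE 0.23) did not pass (edgeR, adjusted p = 0.14). DESeq2 and limma also called 0 genes of these role groups.

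**Figure D4:**
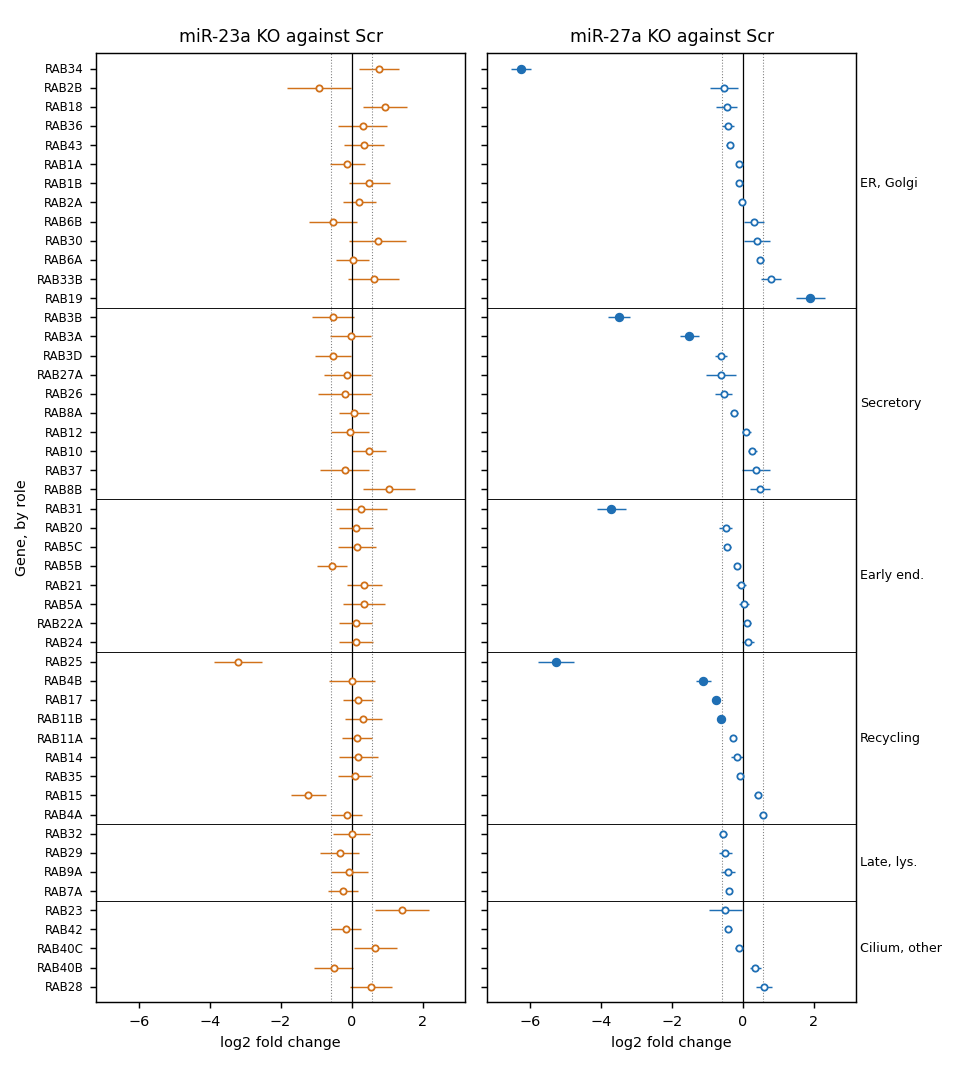
Points are log2 fold changes by edgeR with their SE as bars, for each RAB gene tested, ordered by role, in miR-23a KO against Scr (left) and miR-27a KO against Scr (right). Filled points were called and dotted lines mark 1.5-fold. The comparisons share the Scr libraries. Filled points are on the right panel only, 8 below 0 and 1 above, and the bars of the left panel are longer.

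The genes that act on RAB proteins were taken as lists of escort genes, exchange factors, GTPase activating proteins and effectors. In miR-27a KO against Scr, 0 of 8 escort genes were called by edgeR, against 6.74% of all genes lower and 3.52% higher (2 with an unadjusted p under 0.05, against 32.2% of all genes), with a median log2 fold change of -0.09. Of the exchange factors 46 were tested, with 1 called lower, 0 higher (16 with an unadjusted p under 0.05 in either direction, against 32.2% of all genes), against 6.74% and 3.52% of all genes, and a median of -0.01. The 1 was RIN1, which acts on RAB5 proteins, with 705 and 820 counts in Scr, 1304 and 247 with miR-23a targeted and 449 and 401 with miR-27a targeted. Its log2 fold change was -1.03 (SE 0.13; edgeR, adjusted p = 0.0132).

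Of the GTPase activating proteins 37 were tested, with 3 called lower, 0 higher (14 with an unadjusted p under 0.05 in either direction, against 32.2% of all genes), against 6.74% and 3.52% of all genes, and a median log2 fold change of -0.02. They were EVI5L, TBC1D25 and USP6NL, at -0.71, -0.69 and -0.59. USP6NL, which acts on RAB5 proteins, had 552 and 613 counts in Scr, 305 and 1367 with miR-23a targeted and 421 and 460 with miR-27a targeted. Of 53 effectors tested, 7 were called lower and 1 higher, with a median of 0.02, against the same shares of all genes. An unadjusted p under 0.05 (edgeR) was found for 15 of the 53 in either direction, against 32.2% of all genes. SYTL2, which binds RAB27 proteins on secretory granules, had 139 and 177 counts in Scr, 96 and 792 with miR-23a targeted and 14 and 10 with miR-27a targeted. SYTL4, of the same family, had 47 and 55, 18 and 128, and 4 and 5. For both the miR-27a KO libraries were lowest and the miR-23a KO libraries on either side of Scr. SYTL2 fell by 3.89 on the log2 scale (SE 0.32; edgeR, Benjamini-Hochberg adjusted p = 0.00618), and SYTL4 had a log2 fold change of -3.65 (SE 0.43; adjusted p = 0.0119). RPH3AL, which binds RAB3 and RAB27 proteins, fell by 1.29 and MICAL1 by 1.24. PLIN3 fell by 0.81, and MYO5B, a motor that binds RAB11 proteins, rose by 0.73 with 658 and 945 counts in Scr and 1560 and 1454 in miR-27a KO.

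The comparison of miR-23a KO with Scr asks the same of cells with miR-23a targeted. No RAB gene passed the edgeR test, and DESeq2 called 1, RAB25. It had 24 and 17 counts in miR-23a KO against 198 and 180 in Scr, without overlap, 9.18-fold lower at a log2 fold change of -3.20 (SE 0.67; edgeR, Benjamini-Hochberg adjusted p = 0.46; unadjusted p = 0.00135). In DESeq2 the value was -3.20 (adjusted p = 0.00131), called lower, and limma did not call it (-3.13, adjusted p = 0.505). Without replicate 1 of miR-23a KO the edgeR value was -3.77 and without replicate 2 it was -2.82. Without replicate 1 or 2 of Scr it was -3.12 and -3.28. RAB15, a RAB of recycling endosomes, had 546 and 607 counts in Scr, 273 and 224 with miR-23a targeted and 851 and 916 with miR-27a targeted. The miR-23a KO libraries were lowest and those of miR-27a KO highest. In miR-23a KO the log2 fold change was -1.22 (SE 0.49; edgeR, adjusted p = 1), and without replicate 1 or 2 of miR-23a KO it was -1.67 and -0.93. Without replicate 1 or 2 of Scr RAB15 was at -1.29 and -1.16. RAB15 overlaps CHURC1-FNTB on the opposite strand, so its counts are uncertain.

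Over all genes, edgeR called 0 higher (0%) and 0 lower (0%) in this comparison, and 0 RAB genes of 48 tested. On simulated counts with the spread of this comparison, it called 15 of 200 genes changed 4-fold. The absence of calls is therefore not evidence that levels were unchanged. By an unadjusted p under 0.05, 0 RAB genes were higher and 2 lower (4.17%), against 0.856% and 1.55% of all genes. With no overlap and over 1.5-fold, 0 were higher and 2 lower, against 6.54% and 6.44% of all genes. DESeq2 called 1 RAB gene lower and 0 higher, against 0.428% and 0.029% of all genes, and limma called 0 in each direction, against 0% of all genes. The median log2 fold change was 0.10 over the RAB genes and 0.16 over all genes. Without replicate 2 of miR-23a KO, 5 RAB genes of 49 were called higher and 4 lower, against 12% and 6.6% of all genes. Without replicate 1, 0 were higher and 2 lower, against 2.34% and 1.78%. The sign of single genes turned with the library left out. RAB34 was at 0.77 with both, at -0.32 without replicate 1 and at 1.35 without replicate 2, and RAB1B at 0.50, -0.51 and 1.06. By role the medians were 0.33 for the ER and Golgi, -0.08 for secretory vesicles, 0.14 for early endosomes, 0.09 for recycling endosomes, -0.15 for late endosomes and lysosomes, and 0.55 for the cilium and other roles. The lists of escort genes, exchange factors, GTPase activating proteins and effectors had medians of 0.45, 0.27, 0.23 and 0.18, with 0 called by edgeR and 0, 1, 0 and 1 genes with an unadjusted p under 0.05, against 2.41% of all genes.

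The KO groups were also compared directly, which tests whether the 2 groups differ and does not use Scr. RAB34 had the largest difference, 127-fold higher in miR-23a KO than in miR-27a KO at a log2 fold change of 6.99 (SE 0.90). It did not pass over both groups (edgeR, Benjamini-Hochberg adjusted p = 0.101), and it was called in 5 of the 8 other ways of processing, DESeq2 included. The RAB34 value was 5.87 and 7.60 without replicate 1 or 2 of miR-23a KO. It was 6.54 and 7.59 without replicate 1 or 2 of miR-27a KO. RAB31 was at 3.87 (SE 0.93; edgeR, adjusted p = 0.271), RAB3B at 2.87 (SE 0.59; adjusted p = 0.195) and RAB25 at 2.01 (SE 0.90; adjusted p = 0.658). Of the 8 other ways of processing, 3 called RAB31, 4 called RAB3B and 0 called RAB25. Without 1 library RAB31 ran from 2.51 to 4.60, RAB3B from 2.29 to 3.27 and RAB25 from 1.30 to 3.41. RAB23, which acts in cilium signalling, had 35 and 74 counts in Scr, 64 and 254 with miR-23a targeted and 52 and 36 with miR-27a targeted. Its libraries did not overlap between the KO groups, at 1.81 (SE 0.65; edgeR, adjusted p = 0.532), and it overlaps BAG2 on the opposite strand. RAB23 was called in 1 of the 8 other ways of processing and ran from 0.88 to 2.35 without 1 library. Fitted lower in miR-23a KO were RAB19 at -3.47, RAB15 at -1.70, RAB40B at -0.92, RAB6B at -0.91 and RAB4A at -0.76. None of them passed (edgeR, adjusted p = 0.17, 0.273, 0.723, 0.707 and 0.607).

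In this comparison edgeR called 0 genes higher (0%) and 0 lower (0%) among 13841 tested, and 0 RAB genes of 49. By an unadjusted p under 0.05, 6 RAB genes (12.2%) were higher and 2 (4.08%) lower in miR-23a KO, against 4.66% and 4.06% of all genes. With no overlap and over 1.5-fold, 9 were higher and 6 lower, against 13.6% and 11.7%. DESeq2 called 3 higher and 1 lower, against 1.87% and 1.58% of all genes, and limma 0, against 0.0578% higher and 0.0939% lower. Without replicate 1 of miR-23a KO, 13 of the 49 were called higher and 8 lower, against 19.3% and 14.9% of all genes. Without replicate 2 the counts were 17 and 8, against 25.2% and 26.2%. Without replicate 1 or 2 of miR-27a KO they were 1 and 0, against 0.187% or 0.174% of all genes higher and 0.339% or 0.327% lower. The median log2 fold change was 0.26 over the RAB genes and 0.11 over all genes. It was 0.17 for the ER and Golgi, 0.29 for secretory vesicles, 0.28 for early endosomes, 0.37 for recycling endosomes, and 0.19 for late endosomes and lysosomes and for the other roles. Escort genes, exchange factors, GTPase activating proteins and effectors had medians of 0.50, 0.18, 0.19 and 0.19, with 0 called by edgeR and 0, 2, 0 and 6 with an unadjusted p under 0.05, against 8.72% of all genes. A RAB gene called in miR-27a KO and not in miR-23a KO is therefore not shown to differ between the KO groups by this test. Nor is it shown to be alike in them. On simulated counts with the spread of this comparison, edgeR called 3 of 200 genes changed 4-fold.

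Of the 61 RAB genes, 21 overlap another gene in the annotation, and 4 of the 9 called genes do.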

How the data were processed

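RNA-seq of 6 HepG2 libraries was used, grouped by the labels. The authors deposited 1 table of expected counts per gene, named FPKM in its headers. The sums differ by library and the values are not scaled for depth or length, so they were read as estimated counts and rounded to whole numbers. The submitters' processing notes name HISAT, StringTie, Cufflinks and GATK without versions. The genome build, the annotation, the counting tool and its use of strand are not given in the sources used here. The kit is named as stranded in the methods of the study and not in the labels.

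Each pair of groups was fitted alone in edgeR 4.0.16 (R 4.3.3), with filterByExpr, TMM scaling and the quasi-likelihood test, and Benjamini-Hochberg adjustment over all genes tested. The call needed a fold change over 1.5, the criterion of the study, which names no test, and an adjusted p under 0.05. The 0.001 of the study was an alternative. DESeq2 1.42.0, limma 3.58.1 (prior count 2), other scaling, no filter, all libraries in 1 fit, a replicate block, loess correction for GC content and length, and leaving out each library were the others. The 8 other ways of processing are these, with the correction also run with the block, apart from the fits leaving out a library. They keep the thresholds of the call. The scripts were tested on simulated counts, with 200 genes changed 4-fold on the means, library sizes and spread of each comparison. The main test called 195 of these in miR-27a KO against Scr, 15 in miR-23a KO against Scr and 3 between the KO groups. It also called 23, 0 and 2 unchanged genes, in the same order. The test could thus seldom call even a 4-fold change in the comparisons that use miR-23a KO. CPM used TMM factors over all 6 libraries, and overlap was judged on it. Transcript length, GC content, 3'-UTRs and positions came from GENCODE 29, and all 61 RAB genes matched. Replicates of each group differed by more than sampling noise.

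The members and lists were chosen with earlier results of these data known. RAB genes were named with their values by rule. The rule took those called, in each comparison up to 5 per direction with the largest difference over 1.5-fold and no overlap, the 5 highest per kilobase in Scr, and those with sites for both miRNAs, which made 20. Of the lists, up to 5 called genes in each direction were named. Others are paralogs or were chosen after their values were seen.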

Additional observations from a re-analysis of the deposited data

Results flagged for a closer look

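For 7 RAB genes every library of 1 KO group lay above both Scr libraries and every library of the other KO group below them, in CPM. These were 14.3% of the 49 RAB genes tested between the KO groups, against 854 of 13841 genes (6.17%) with the same pattern. The direct comparison of miR-23a KO with miR-27a KO tested each difference, and none passed (edgeR, quasi-likelihood test, Benjamini-Hochberg adjusted). RAB19 was lower than Scr in miR-23a KO and higher in miR-27a KO, at a log2 fold change of -3.47 between the KO groups (adjusted p = 0.17). RAB15 had the same directions, at -1.70 (adjusted p = 0.273), as had RAB40B at -0.92 (0.723), RAB6B at -0.91 (0.707) and RAB4A at -0.76 (0.607), these in edgeR's adjusted p. RAB17 was higher than Scr in miR-23a KO and lower in miR-27a KO, at 0.85 (edgeR, adjusted p = 0.558), and RAB11A at 0.37 (0.83). RAB11A had 1437 and 1525 counts in Scr, 1539 and 1870 with miR-23a targeted and 1420 and 1384 with miR-27a targeted. Of the 8 other ways of processing, 3 called RAB19, 2 called RAB15 and 0 called RAB40B, RAB6B, RAB4A or RAB17. With 1 library left out, RAB19 ran from -3.95 to -3.06, RAB15 from -2.15 to -1.36 and RAB40B from -1.55 to -0.48. RAB6B ran from -1.07 to -0.74, RAB4A from -0.85 to -0.69 and RAB17 from 0.75 to 0.94.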

How the results depend on the processing

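With 2 libraries in each group the fits rest on few degrees of freedom, and where 1 library was left out the lone library was assumed to vary like the others. In miR-27a KO against Scr, 8 RAB genes were lower and 1 higher. The same 8 were lower with median-ratio scaling, DESeq2, limma and the replicate block, 7 of them with no filter and 6 with the GC content and length correction, which called 7. Of all genes, 6.78% were lower with median-ratio scaling, 7.6% with DESeq2 and 6.61% with limma. The share was 7.74% with the replicate block, 3.04% with no filter and 6.42% with the correction. The count of RAB genes was 1 lower with all 6 libraries in the fit and 0 at an adjusted p under 0.001, where fewer genes can pass by construction. It was 11 with no fold change threshold, a setting for which the share of all genes was not computed. The count higher was 0 with DESeq2, no filter, all 6 libraries or an adjusted p under 0.001. It was 2 with the GC content and length correction and 3 with no fold change threshold, again without a share of all genes. Of all genes, 4.1% were higher with DESeq2, 1.57% with no filter and 4.2% with the correction. The median of -0.25 over the RAB genes was -0.36 with no filter and -0.27 to -0.10 without 1 library.

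In miR-23a KO against Scr, RAB genes lower numbered 1 with DESeq2 and 0 to 4 without 1 library, and higher 0 to 5. The median of 0.10 was -0.02 with the GC content and length correction and -0.17 to 0.15 without 1 library. Between the KO groups, RAB genes higher numbered 3 with DESeq2, 1 with all 6 libraries, 2 with the correction and 1 to 17 without 1 library. RAB genes lower numbered 1 with DESeq2, 1 with the correction and 0 to 8 without 1 library. Of all genes, DESeq2 called 1.87% higher and 1.58% lower, and the correction 1.25% and 1.33%. With all 6 libraries in the fit the share was 0.77% in each direction. The median of 0.26 over the RAB genes was 0.15 with limma, 0.18 with the correction and 0.09 to 0.24 without 1 library. The cause of these shifts was not tested.

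The replicate numbers did not pair the libraries. The deviations of libraries with the same number correlated at r = 0.15 for miR-23a KO and Scr, 0.01 for miR-27a KO and Scr, and 0.02 between the KO groups. With the replicate block, 1 RAB gene, RAB25 (-3.24, edgeR adjusted p = 0.0044), was lower in miR-23a KO against Scr, 8 were lower and 1 higher in miR-27a KO against Scr, and 3 were higher and 1 lower between the KO groups, with a median of 0.15 in the last. Of all genes, the block called 0.45% lower and 0.0508% higher in miR-23a KO against Scr. It called 7.74% lower and 4.52% higher in miR-27a KO against Scr, and 1.52% higher and 1.37% lower between the KO groups. With the correction and the replicate block, 1 RAB gene, RAB25 again (-3.16, edgeR adjusted p = 0.0226), was lower in miR-23a KO against Scr (median -0.05), 8 were lower (6 of them among the 8 above) and 2 higher in miR-27a KO against Scr, and 5 were higher and 2 lower between the KO groups (median 0.15). Of all genes, 0.268% were lower and 0.023% higher in miR-23a KO against Scr. The shares were 7.59% lower and 5.46% higher in miR-27a KO against Scr, and 4.77% higher and 4.5% lower between the KO groups. For the 20 RAB genes named by rule, no result turned from called in 1 direction to the other under any alternative.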
